A study of Mus musculus with 6 samples.

Results

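Transcripts of 10 genes that make and desaturate fatty acids were followed in CT26 cells, out of 53801 genes in the expression tables. The genes were chosen by name as members of the pathway, with no threshold on their values but with earlier results of these data known. They were Srebf1, which encodes the transcription factor SREBP-1, and the enzyme genes Acly, Acss2, Acaca, Fasn, Elovl6, Scd1, Scd2, Fads1 and Fads2. CT26 is a transplantable colon carcinoma line of BALB/c mice. The study compared the parental line with B04 and B64, lines whose labels call them resistant to antibody to PD-1 and whose barcodes, in the study's methods, antibody to PD-1 and antibody to CTLA-4 each enriched, to ask how resistant clones differ in transcription from the population they came from. The parental line was a bulk population of barcoded CT26 cells taken back into culture from tumours, and B04 and B64 were each grown from a single cell, so that each resistant line is 1 clone. The sample titles call the material tumour, whereas the study's methods describe cultured cells in RPMI medium without treatment, with 2 libraries, A and B, for each line. The labels do not say that the 2 libraries came from separate cultures, so p-values measure only the spread between these libraries, which may be technical.

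Cells build fatty acids from cytosolic acetyl-CoA. ACLY releases it from citrate and ACSS2 makes it from acetate, ACACA turns it into malonyl-CoA, and FASN joins these units into palmitate. ELOVL6 lengthens palmitate to stearate, SCD1 and SCD2 place the first double bond in these saturated chains, and FADS2 and FADS1 add further double bonds to polyunsaturated fatty acids that come from the diet. Many of these genes are known targets of SREBP-1, a membrane-bound precursor that is cut and enters the nucleus when sterols are low, and tumour cells often run the pathway at a high rate.

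Library totals ranged from 19409204 to 23472012 expected counts, the estimated reads per gene, and 10970 to 11208 genes per library had at least 1 TPM (a transcript level scaled by gene length and by the library). The 2 libraries of a line differed by more than counting noise, with a chi-square per degree of freedom of 5.33 to 7.17, against 26.4 to 41.3 between lines. Fragments were longer in both parental libraries and B04 A (the excess of gene length over effective length was 271.8 to 277.3 bases) than in B04 B and both B64 libraries (220.8 to 246.2 bases). Adipocyte markers, which would carry a lipid programme of their own, together reached no more than 0.59 TPM, and 4 of the 9 were at 0 throughout. Of the 10 leukocyte markers 3 were at 0, and their sum was 10.6 to 11 TPM in the parental line, 10.5 to 12.2 in B04 and 36.7 to 40.3 in B64, with Cd68 the only one at or above 1 TPM. The 9 epithelial and colon markers summed to 23.2 to 24.7, 25.6 to 26 and 46.7 to 49.0 TPM in the same order, almost entirely from Krt18 and Krt20. Defining epithelial genes such as Epcam and Cdh1 were near 0, while the 5 mesenchymal markers summed to 2320 TPM in both parental libraries, 3720 to 4060 in B04 and 2750 to 2800 in B64. Vim made up most of that sum, and Cdh2 and Zeb2 were lower in both B04 libraries than in the parental line. In bulk RNA fewer cells of a type and less RNA per cell cannot be told apart.

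The 10 genes spanned a wide range of levels. By TPM, Scd2 was highest in all 3 lines (240.0 ± 6.81 in the parental line, 350.0 ± 3.36 in B04 and 302.0 ± 15.8 in B64; SD, n = 2) and Acss2 lowest (3.22 ± 0.24, 6.11 ± 0.184 and 3.17 ± 0.311). In the parental line the order was Scd2, Fads1, Scd1, Acly, Fads2, Srebf1, Fasn, Acaca, Elovl6 and Acss2, and Fads1 and Scd1 overlapped. In B04 and B64 Scd1 stood above Fads1 with no overlap. Fads2 ranked above Acly in B04, with 119.88 and 120.50 TPM against 90.61 and 92.38, but below it in the parental line and in B64. Summed over the 10 genes, the level was 824.4 and 763.3 TPM for the parental line, 1087 and 1112 for B04 and 918.9 and 978.8 for B64, so both clones lay above the parental line and B04 above B64. Scd1 and Scd2 made up 47.9% and 48.3% of that sum for the parental line, 51.3% and 51.7% for B04 and 53.2% and 52.7% for B64.

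Compared with the parental line, B04 had more mRNA of the desaturases, of Elovl6, of Acss2 and of Srebf1, and counts of Fasn and Acaca that overlapped those of the parental line. Of the 10 genes 7 were called at an adjusted p under 0.05, all 7 higher in B04, where 24.1% of the 13218 genes tested were called and 11.2% were called higher. Both B04 libraries lay above both parental libraries for 8 of the 10, against 32.2% of all genes. In B64 only Scd1 and Scd2 passed, 2 of 10, where 16.3% of all genes were called and 8.87% were called higher, and both B64 libraries lay above both parental libraries for 4 of the 10, against 30.5% of all genes. The comparisons with B04 and B64 share the parental libraries and are not independent. The difference between the clones was therefore tested on its own: 6 of the 10 were lower in B64 than in B04, where 24.3% of 12855 genes were called and 11.1% were called lower, and both B64 libraries lay below both B04 libraries for 8 of the 10, against 33.4% of all genes. The count of 6 fell to 2 without B04 replicate A, to 3 without B04 replicate B and to 2 without B64 replicate A. The median log2 fold change of the 10 genes was 0.35 in B04 and 0.06 in B64 against the parental line, beside a median of 0.0 over all genes tested in either comparison.

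**Figure D1:**
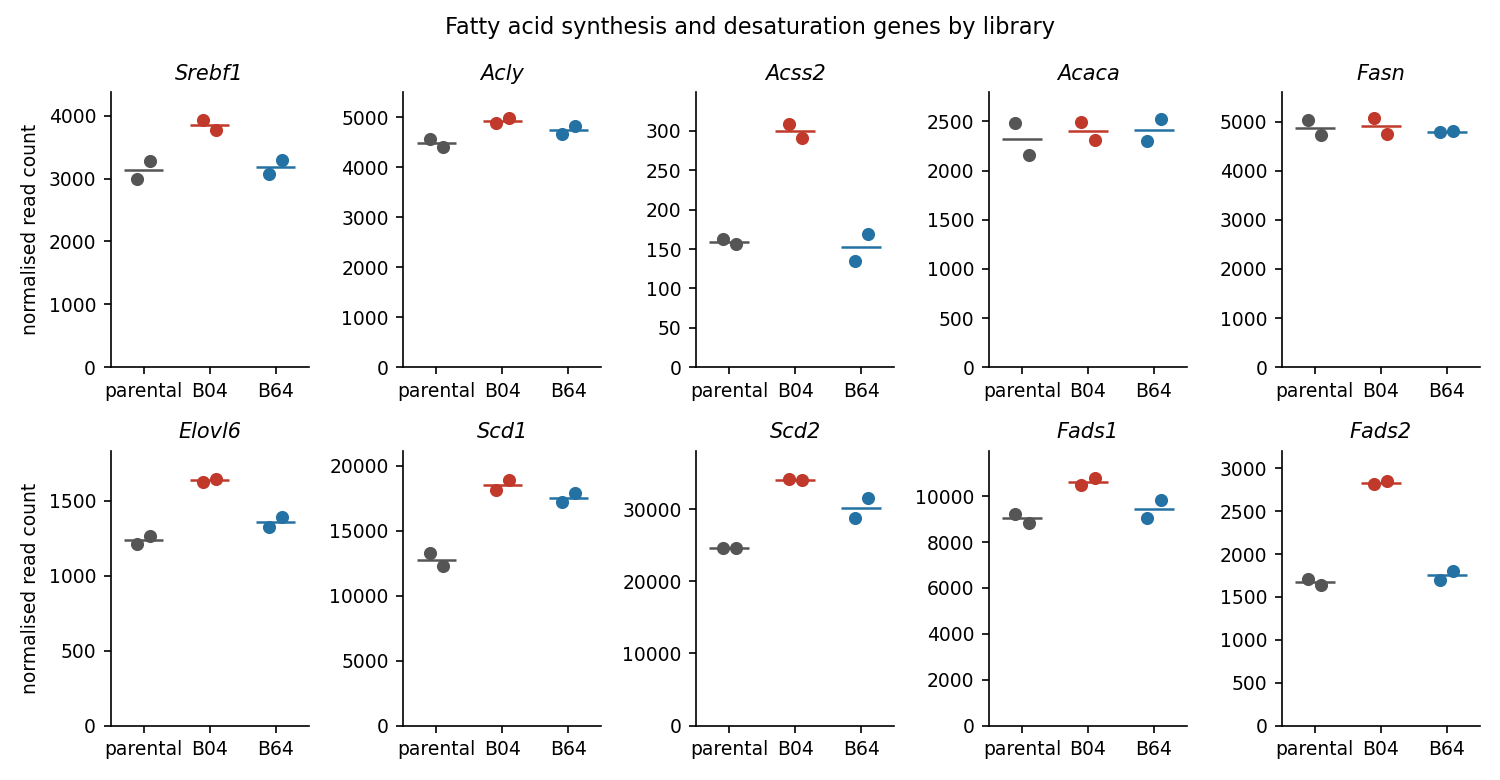
Normalised read counts (y axes, from 0, on a separate scale for each gene) of the 10 genes in the parental line, B04 and B64; each point is a library and each bar the mean of 2 libraries. The B04 points stand clear above both other lines for Acss2, Elovl6, Srebf1 and Fads2, both clones stand above the parental line for Scd1 and Scd2, and the 3 lines overlap for Fasn and Acaca.

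Srebf1 (ENSMUSG00000020538, chr11:60199089-60222581, minus strand, GRCm38) was read at 2996 and 3278 normalised counts (libraries A and B, in this order throughout) for the parental line, 3934 and 3771 for B04 and 3071 and 3297 for B64. Both B04 libraries were the highest, and the parental and B64 libraries overlapped. The rise in B04 was 1.23-fold (log2 fold change 0.30, SE 0.07, adjusted p = 0.000529), whereas the difference of B64 from the parental line was 0.02 with a 95% interval of -0.12 to 0.17. B64 lay below B04, with a log2 difference of -0.27 (SE 0.07, adjusted p = 0.00149). The call in B04 was lost without parental replicate A (0.23, adjusted p = 0.0679) and without B04 replicate A (0.26, adjusted p = 0.0535), and the call between the clones was lost without B04 replicate A (-0.24, adjusted p = 0.0886) and without B64 replicate A (-0.22, adjusted p = 0.125). The gene-level count joins the transcripts of the SREBP-1a and SREBP-1c starts, and the gene overlaps Rai1 on the opposite strand. The cut, nuclear form of the protein was not measured.

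Of the 2 genes that supply acetyl-CoA, Acss2 rose in B04 and Acly did not pass the test in either clone. Acly (ENSMUSG00000020917, chr11:100476353-100528000, minus strand) counted 4562 and 4398 for the parental line, 4894 and 4979 for B04 and 4668 and 4837 for B64. Both clones thus lay above the parental line in every library, but by little: the log2 fold change was 0.14 in B04 (95% interval 0.02 to 0.26, adjusted p = 0.0814) and 0.09 in B64 (-0.04 to 0.21, adjusted p = 0.42). Acss2 (ENSMUSG00000027605, chr2:155517948-155585724, plus strand) counted 163 and 156 for the parental line, 309 and 291 for B04 and 135 and 169 for B64. Both B04 libraries were far above the other 4, which overlapped. This was the largest change among the 10 genes in B04, 1.88-fold (log2 fold change 0.91, SE 0.21, adjusted p = 0.000186). B64 stood at -0.07 against the parental line (-0.50 to 0.37) and at -0.98 against B04 (SE 0.21, adjusted p = 5.91e-05). Acss2 had the lowest counts of the 10 genes and the widest intervals, and it overlaps Gss, Ggt7 and Acss2os on the opposite strand. The strand setting of the read counting is not given in the sources used here, so reads in the shared stretches could belong to either gene.

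The enzymes at the core of the pathway did not pass the test in either clone. Acaca (ENSMUSG00000020532, chr11:84129672-84401651, plus strand), the committed step, counted 2481 and 2161 for the parental line, 2492 and 2313 for B04 and 2305 and 2527 for B64. Fasn (ENSMUSG00000025153, chr11:120805846-120824547, minus strand), the synthase itself, counted 5023 and 4724, 5076 and 4748, and 4783 and 4804. For both genes the 3 lines overlapped. The log2 fold change of Fasn was 0.01 in B04 (95% interval -0.11 to 0.14, adjusted p = 0.939) and -0.02 in B64 (-0.15 to 0.10, adjusted p = 0.883). That of Acaca was 0.05 in B04 (-0.12 to 0.22) and 0.06 in B64 (-0.12 to 0.23). In B04 the 95% intervals of Acss2, Fads2, Scd1, Scd2 and Elovl6 lay above those of Fasn and Acaca. The interval of Srebf1 (0.15 to 0.44) overlapped that of Acaca, and the interval of Fads1 (0.12 to 0.35) overlapped both. Differences between genes were not tested.

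The stretch before a RefSeq transcription start (GRCm38.p6) is shown for Acss2 and Fads2, which rose most in B04, and for Fasn, which did not pass. Each has 250 bases, 5′ to 3′ on the gene's strand, and capitals mark the letters CCAAT or their complement ATTGG. The stretches differ in place relative to the gene spans given in the text. That of Fasn ends at the edge of its span. That of Acss2 reaches into its span with the marked letters, and that of Fads2 lies almost wholly inside its span. The windows are chr2:155517793-155518042 (plus strand) for Acss2, chr19:10101504-10101753 (minus strand) for Fads2 and chr11:120824548-120824797 (minus strand) for Fasn.
Acss2: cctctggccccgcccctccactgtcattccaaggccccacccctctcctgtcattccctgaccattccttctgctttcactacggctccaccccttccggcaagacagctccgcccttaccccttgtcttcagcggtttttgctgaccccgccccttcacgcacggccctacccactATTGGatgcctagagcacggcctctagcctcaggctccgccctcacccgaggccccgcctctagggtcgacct
Fads2: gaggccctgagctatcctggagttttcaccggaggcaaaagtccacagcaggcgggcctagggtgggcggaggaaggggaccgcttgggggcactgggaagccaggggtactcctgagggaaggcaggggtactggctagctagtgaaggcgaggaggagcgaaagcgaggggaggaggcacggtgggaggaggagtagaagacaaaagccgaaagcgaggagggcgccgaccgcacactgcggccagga
Fasn: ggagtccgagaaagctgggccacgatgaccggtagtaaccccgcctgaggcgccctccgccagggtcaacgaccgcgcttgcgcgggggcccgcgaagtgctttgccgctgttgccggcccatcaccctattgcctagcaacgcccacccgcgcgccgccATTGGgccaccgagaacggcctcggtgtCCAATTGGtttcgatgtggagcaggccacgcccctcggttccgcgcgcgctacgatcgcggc

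RefSeq windows of 300 bases, from 250 before to 50 after a start, matched 7 of the 10 genes in 9 windows, 3 of them at different starts of Srebf1. Each was searched on both strands for a sterol regulatory element (TCACNCCAC), an E-box (CACGTG) and a CCAAT box (CCAAT), motifs that SREBP and its partner factors are known to bind. Neither of the first 2 strings occurred in any of the 9 windows, and they occur in 1.24% and 7.15% of 32851 windows of the same length. CCAAT occurs in 37.4% of windows. It was found 3 times in the window of Fasn, 90, 62 and 59 bases before the start, the last pair overlapping, and once in that of Acss2, 73 bases before the start on the opposite strand. It was found once in that of Acly, 37 bases after the start, and in 2 of the 3 windows of Srebf1, and not in those of Acaca, Elovl6 and Fads2. Scd1, Scd2 and Fads1, which also rose in B04, had no window. Among the genes with a window that rose in B04, Acss2 and Srebf1 held the letters and Elovl6 and Fads2 did not. Among those that did not pass, Fasn and Acly held them and Acaca did not. The Acaca window belongs to a start well inside the gene span, with its 250 bases before that start at chr11:84195188-84195437. The letters do not show whether a factor binds.

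Elovl6 (ENSMUSG00000041220, chr3:129532355-129638495, plus strand), which lengthens the product of FASN, counted 1209 and 1265 for the parental line, 1626 and 1646 for B04 and 1322 and 1394 for B64. The 3 lines did not overlap and fell in the order parental, B64, B04. The rise in B04 was 1.32-fold (log2 fold change 0.40, SE 0.09, adjusted p = 7.23e-05). In B64 the value was 0.13 (95% interval -0.04 to 0.31, adjusted p = 0.373), and B64 lay below B04 with a difference of -0.27 (SE 0.09, adjusted p = 0.0143). That last call was lost when any 1 of the 4 libraries compared was left out, with adjusted p = 0.14 and 0.148 without B04 replicates A and B, and 0.253 and 0.0839 without B64 replicates A and B.

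The stearoyl-CoA desaturases were the genes that rose in both clones. Scd1 (ENSMUSG00000037071, chr19:44394455-44407879, minus strand) counted 13264 and 12302 for the parental line, 18171 and 18932 for B04 and 17216 and 17916 for B64. Scd2 (ENSMUSG00000025203, chr19:44293674-44306864, plus strand) counted 24535 and 24610, 34158 and 34010, and 28753 and 31480. For both genes every clone library was above every parental library, and every B04 library above every B64 library. Scd1 was 1.45-fold higher in B04 (log2 fold change 0.54, SE 0.06, adjusted p = 8.63e-20) and 1.37-fold higher in B64 (0.46, SE 0.06, adjusted p = 2.63e-14), and the clones differed by -0.08 (95% interval -0.19 to 0.03, adjusted p = 0.352). Scd2 was 1.39-fold higher in B04 (0.47, SE 0.05, adjusted p = 1.06e-16) and 1.23-fold higher in B64 (0.29, SE 0.05, adjusted p = 1.41e-06), with B64 below B04 at a difference of -0.18 (SE 0.05, adjusted p = 0.00545). The call of Scd2 between the clones was lost without B04 replicate A (adjusted p = 0.084), without B04 replicate B (0.0551) and without B64 replicate A (0.29).

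Scd1 and Scd2 lie 87590 bases apart and are similar in sequence: their longest exactly shared transcript run was 147 bases, and that of Scd1 and Scd3 was 185, with paired reads of 150 bases. The expected count of Scd1 was not whole in any of the 6 libraries and that of Scd2 in only 1, so a part of their reads was divided among copies and the split between them is less certain than their sum. Acaca counts were not whole in any library either, while those of the other 7 genes were whole in all 6, within 0.005. Acaca overlaps Gm37391 on its own strand and Gm11437 on the opposite strand, and where its shared reads lie was not tested. The TPM ratio of Scd2 to Scd1 was 1.63 and 1.76 for the parental line, 1.66 and 1.58 for B04 and 1.47 and 1.55 for B64. It was lower in both B64 libraries than in the other 4, and B04 and the parental line overlapped. Scd3 was rare, at 0.11 to 0.81 TPM.

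**Figure D2:**
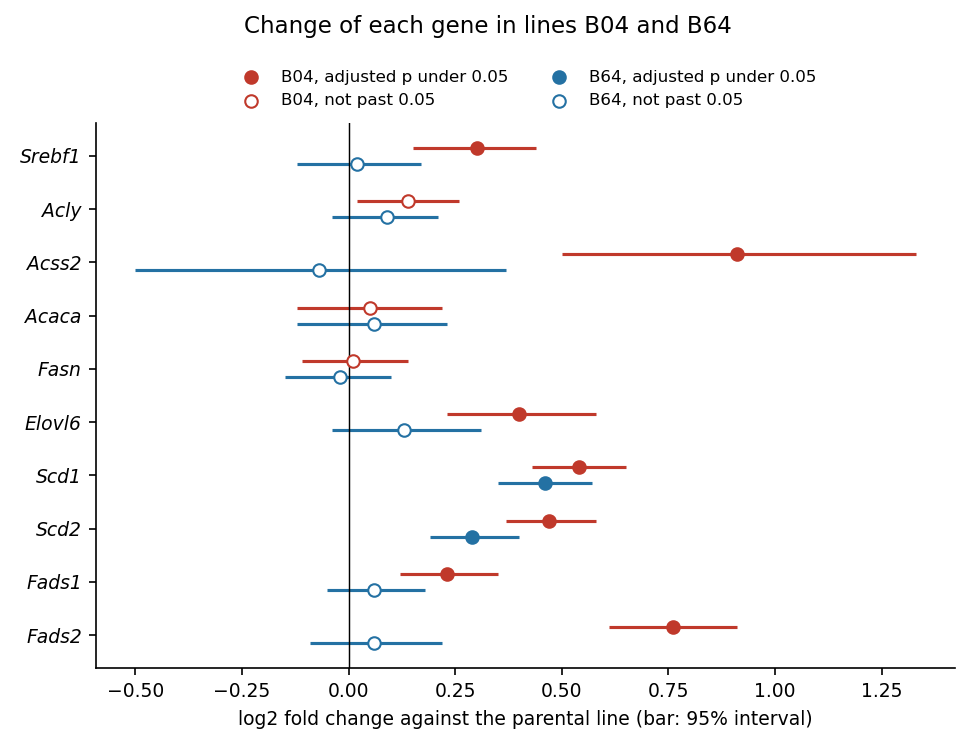
Log2 fold change (x axis) of each gene (y axis) in B04 (red) and B64 (blue) against the parental line; points are DESeq2 estimates, bars their 95% intervals, and filled points passed an adjusted p of 0.05. Both clones lie to the right of 0 for Scd1 and Scd2, B04 alone has filled points for Srebf1, Acss2, Elovl6, Fads1 and Fads2, and the intervals of Fasn and Acaca cross 0 in both clones.

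The polyunsaturated fatty acid desaturases passed the test in B04 and not in B64. Fads2 (ENSMUSG00000024665, chr19:10062765-10101746, minus strand), the first desaturation step, counted 1706 and 1642 for the parental line, 2811 and 2854 for B04 and 1697 and 1803 for B64. Fads1 (ENSMUSG00000010663, chr19:10182888-10196877, plus strand), the later step, counted 9238 and 8842, 10474 and 10800, and 9068 and 9811. B04 was highest in both libraries for both genes, and B64 overlapped the parental line. Fads2 was 1.69-fold higher in B04 (log2 fold change 0.76, SE 0.08, adjusted p = 2.52e-20) and Fads1 1.18-fold higher (0.23, SE 0.06, adjusted p = 0.000608). In B64 the values were 0.06 for Fads2 (95% interval -0.09 to 0.22) and 0.06 for Fads1 (-0.05 to 0.18). B64 was below B04 for both, with log2 differences of -0.69 in Fads2 (SE 0.08, adjusted p = 4.55e-17) and -0.17 in Fads1 (SE 0.06, adjusted p = 0.0177). The call of Fads1 between the clones was lost without B04 replicate A (adjusted p = 0.0825), without B04 replicate B (0.196) and without B64 replicate A (0.389).

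The 2 genes are neighbours, 81141 bases apart, and share no exact transcript run over 17 bases. Their balance moved with the line: the TPM ratio of Fads1 to Fads2 was 2.10 and 2.09 for the parental line and 2.13 and 2.14 for B64, but 1.45 and 1.5 in B04. The B04 libraries were thus apart from the other 4.

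Levels relative to Fasn in the same library do not depend on the scaling between libraries. The TPM ratio of Scd1 to Fasn was 4.81 and 4.57 for the parental line, 6.46 and 7.11 for B04 and 5.84 and 6.34 for B64. That of Scd2 was 7.84 and 8.06, 10.7 and 11.3, and 8.60 and 9.82. Both clones were above the parental line in each library for both genes. For Fads2 the ratio was 2.29 and 2.26, 3.69 and 3.85, and 2.06 and 2.32, and for Acss2 it was 0.109 and 0.105, 0.192 and 0.191, and 0.0871 and 0.106. Only B04 stood apart for these. The ratios of Elovl6 were 0.399 and 0.416, 0.526 and 0.545, and 0.409 and 0.437, and those of Srebf1 1.53 and 1.65, 1.87 and 1.97, and 1.48 and 1.69, again with B04 above the other 4 libraries. The ratios of Acaca (0.766 to 0.947) and of Acly (2.49 to 3.03) overlapped across the lines. These are ratios, which show unequal change and not which gene of a pair changed.

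**Figure D3:**
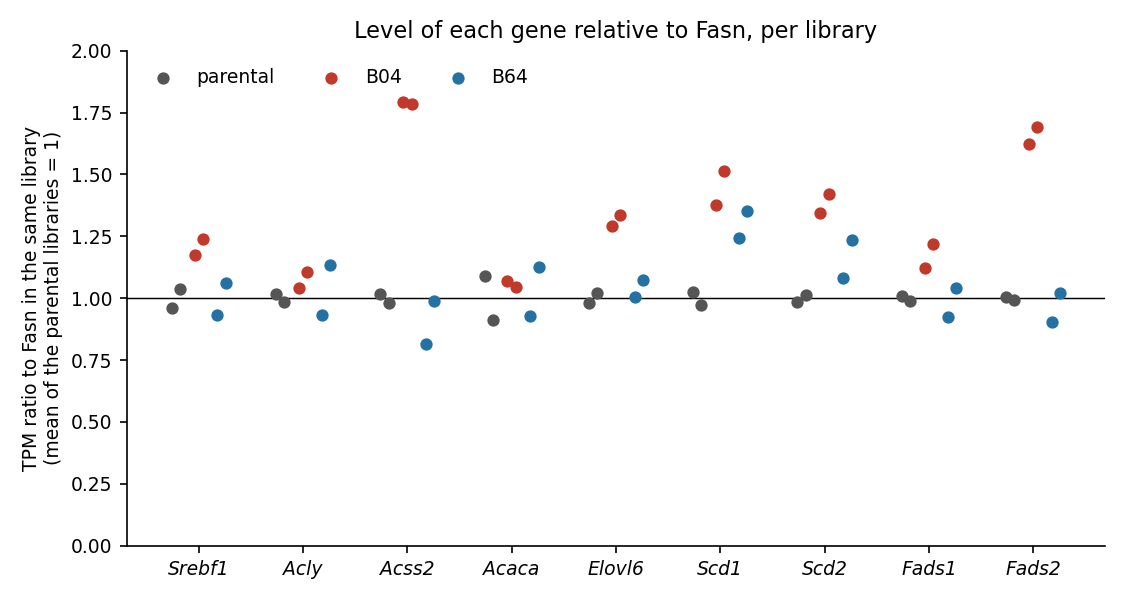
TPM of 9 genes divided by that of Fasn in the same library (y axis, set to 1 at the mean of the parental libraries; gene on the x axis); points are libraries of the parental line (grey), B04 (red) and B64 (blue). B04 stands above the other 4 libraries for Acss2, Fads2, Fads1, Elovl6 and Srebf1, and both clones stand above the parental line for Scd1 and Scd2.

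Fragment length differed between libraries and part of it follows the lines. The changes were therefore also taken within a long and a short class of fragments, split at the widest gap. The short class spans 220.8 bases in B64 A, 225.2 in B04 B and 246.2 in B64 B, so its lengths are only roughly alike. B04 A and the parental libraries have long fragments. Between them the log2 differences were 0.51 for Scd1, 0.48 for Scd2, 0.95 for Acss2, 0.75 for Fads2, 0.39 for Elovl6, 0.33 for Srebf1, 0.21 for Fads1 and 0.06 for Fasn. Between B64 and B04 B, with short fragments, they were -0.95 for Acss2, -0.71 for Fads2, -0.28 for Elovl6, -0.25 for Srebf1, -0.20 for Fads1 and -0.18 for Scd2. These values lie close to those over all libraries. B64 and the parental line share no fragment class, and a DESeq2 fit with the class as a term estimates their difference only through B04: it gave 0.40 for Scd1 (adjusted p = 0.00893) and 0.30 for Scd2 (adjusted p = 0.10, not called). Of the genes of related pathways named below, G6pdx alone was called in B64 in that fit. Cd68 and the 2 keratins, higher in B64, moved with the rises of Scd1 and Scd2 in that line but not with those in B04. The mesenchymal markers moved in different directions by the DESeq2 test: against the parental line Vim was higher in B04 (0.58, with -0.06 in B64, not called), Fn1 was higher in B64 (0.51, with 0.16 in B04, not called), Zeb2 was lower in B04 (-0.61, with -0.07 in B64, not called) and Cdh2 was lower in both clones (-0.35 and -0.34), while Zeb1 was called in neither (0.34 and 0.01). The part of these markers in the results was not tested.

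The genes that control SREBP activity were read from a list of 17, of which 15 could be tested: 6 were higher and 2 lower in B04, and 4 higher and 1 lower in B64, with median log2 fold changes of 0.24 and 0.05. For this list and those below, the shares over all genes tested were 11.2% higher and 12.9% lower in B04. In B64 they were 8.87% higher and 7.45% lower. Srebf2, which encodes the related factor that drives cholesterol synthesis, was higher in both clones (0.35, adjusted p = 5.36e-08 in B04; 0.16, adjusted p = 0.0382 in B64). Insig1, which holds the precursor back in the membrane and is itself a target of SREBP, was higher in B04 (0.61, SE 0.08, adjusted p = 7.52e-12), stood at 0.13 in B64 (adjusted p = 0.379) and differed between the clones by -0.49 (adjusted p = 9.61e-08). Insig2 was higher in both (0.29 and 0.32). Scap, the escort of the precursor, did not pass against the parental line (0.15 in B04 and -0.10 in B64). Mid1ip1, which activates ACACA, was higher in both (0.28 and 0.50), and so was the liver X receptor gene Nr1h2 (0.24 and 0.26). Its relative Nr1h3 was at 0 or 1 count per library, and Mlxipl, the carbohydrate-responsive factor, at 8 to 23 counts. Among those called lower, Mlx (-0.63 in B04) and Erlin1 (-0.36 in B04 and -0.16 in B64) are named here after their values were seen. The 8 calls of this list in B04 fell to 4 without parental replicate A or B04 replicate B and to 5 without B04 replicate A, and Insig2 and Nr1h2 were lost each time. The 5 in B64 fell to 1 without parental replicate A or either B64 replicate, to 2 without parental replicate B and to 3 without either B04 replicate, and Srebf2 was lost each time.

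Genes that supply carbon and NADPH gave 3 higher and none lower of 9 tested in B04, and 3 higher and 1 lower in B64, where 24.1% and 16.3% of all genes were called. G6pdx, the entry to the pentose phosphate pathway, was higher in both (0.38 and 0.52), as was the mitochondrial citrate carrier Slc25a1 (0.44 and 0.31). Tkt was higher in B04 (0.29) and Idh1 lower in B64 (-0.53). The 4 calls in B64 fell to 2 without parental replicate A or B64 replicate B, with Slc25a1 among those lost, and Tkt lost its call in B04 without parental replicate A. Of 17 other fatty acid synthesis and elongation genes tested, 7 were higher and 2 lower in B04 and 2 higher and 1 lower in B64. The median log2 fold changes were 0.25 and 0.07. Hacd4, a dehydratase of the elongation cycle, was higher in B04 (1.63) and lower in B64 (-0.97). Hacd1, of the same family, was higher in both (0.81 and 0.45). Elovl7, an elongase of saturated very long chains, was read at 135 and 136 expected counts in B04 and at 0 in the other 4 libraries, a rise of at least 46.1-fold over the parental line and at least 39.9-fold over B64 with a floor of 3 counts per library. Scd3 was higher in B64 on 31.04 and 44.11 counts against 7.0 and 12.01 (2.20, SE 0.66, adjusted p = 0.00778), reads it may share with Scd1. Hacd4, Hacd1 and Elovl7 stayed called in B04 without each single library, but Elovl7 lost the call there and between the clones with a replicate block for the letters A and B (adjusted p = 0.152 and 0.167 by DESeq2). In addition, the 9 calls of the list there fell to 4 without parental replicate A or B04 replicate B and to 5 without parental replicate B or B04 replicate A. In B64 the 3 calls fell to 1 without parental replicate B and to 0 without parental replicate A or either B64 replicate.

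**Figure D4:**
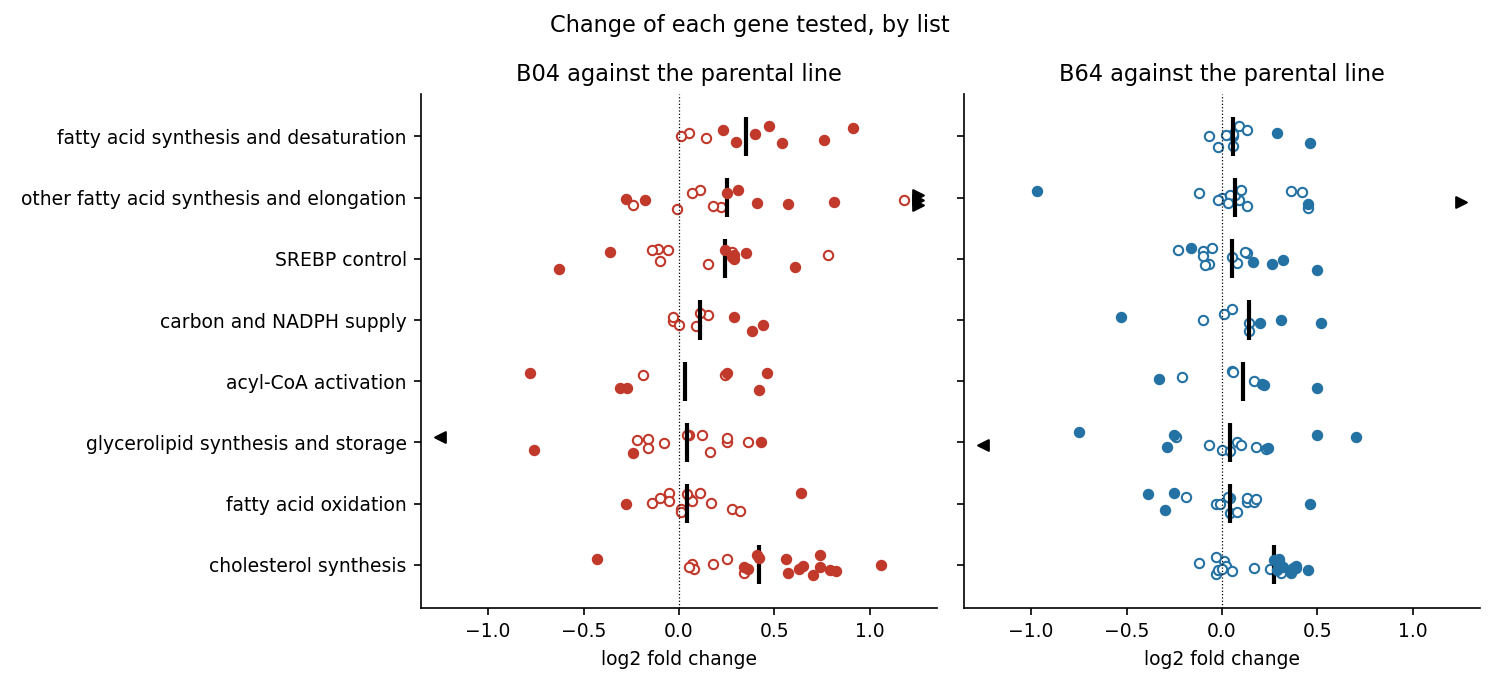
Log2 fold change (x axis) of every gene tested in 8 lists (y axis) in B04 (left) and B64 (right) against the parental line; filled points passed an adjusted p of 0.05, black bars are list medians and arrows are genes beyond the axis (Hacd4, Elovl7, Scd3 and Lpin3 in B04, Scd3 and Lpin3 in B64). The bars of the fatty acid and cholesterol synthesis lists stand farthest right in B04 at 0.35 and 0.42, and in B64 the cholesterol list stands at 0.27.

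Genes that use fatty acids showed no shared direction, beside 24.1% of all genes called in B04 and 16.3% in B64. Of 8 acyl-CoA activation genes tested, 3 were higher and 3 lower in B04, and 3 higher and 1 lower in B64. Slc27a4 and Acsl5 were higher in both clones (0.46 and 0.50; 0.42 and 0.22), Acsl1 was lower in both (-0.31 and -0.33), and Slc27a1 was lower in B04 (-0.78) and stood at 0.06 in B64. Acsl1 lost both calls when any 1 library was left out. The 6 calls in B04 fell to 3 without parental replicate A or B04 replicate B, and the 4 in B64 to 1 without parental replicate A or either B64 replicate and to 2 without parental replicate B or either B04 replicate. Glycerolipid synthesis and storage gave 1 higher and 2 lower of 15 in B04, and 3 higher and 4 lower in B64. Plin2, the coat protein of lipid droplets, was lower in B04 (-0.76, SE 0.07, adjusted p = 4.85e-29) and higher in B64 (0.24, SE 0.06, adjusted p = 0.00159), and Plin3 was higher in B64 (0.50). Agpat2 was higher in B04 (0.43), Agpat1 lower in both (-0.24 and -0.29), Lpin1 higher in B64 (0.70) and Dgat2 lower in B64 (-0.75). Of the 3 calls in B04 only that of Plin2 was left without parental replicate A or either B04 replicate, and the 7 in B64 fell to 4 without parental replicate B and to 3 without B64 replicate A, both times without Plin2. Fatty acid oxidation gave 1 higher and 1 lower of 15 in B04, and 1 higher and 3 lower in B64. Acadm was higher in B04 (0.64), Acadl lower in both (-0.28 and -0.25), Cpt1a, the gate of the mitochondrion for fatty acids, lower in B64 (-0.39) and Ppard higher in B64 (0.46). Acadl lost its call in B04 without parental replicate A or B04 replicate B, which left 1 call. In B64 the 4 calls fell to 1 without parental replicate A or B64 replicate B, with Cpt1a lost, and to 2 without parental replicate B or B64 replicate A.

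Cholesterol synthesis is the pathway run by SREBP-2. Of 21 genes tested, 14 were higher and 1 lower in B04 (median 0.42) and 10 higher and none lower in B64 (median 0.27), where 24.1% and 16.3% of all genes were called. Without B64 replicate B only 2 were called in B64, without either parental replicate 5, and with a term for fragment class none, at a median of 0.24. Sqle, a rate-limiting enzyme, rose by 0.82 in B04 and 0.29 in B64, Acat2, which makes the first intermediate, by 1.06 and 0.45, and Fdps by 0.34 and 0.36. Without parental replicate A Fdps lost both calls, and without B64 replicate B it lost that in B64. Stard4, a sterol carrier, was higher in B04 (0.79) and did not pass in B64 (0.25, adjusted p = 0.0542). Between the clones, 10 of the 21 were lower in B64 and 1 higher, with a median of -0.26, beside 6 and 0 of the 10 fatty acid genes with a median of -0.18. Over all genes tested in that comparison, 11.1% were called lower and 13.1% higher.

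Across the 6 libraries and 9877 genes with a mean of at least 100 normalised counts, the log2 counts of Srebf1 ran most closely with those of Otud1 (Pearson r = 0.994) and Mtfr2 (0.994), and 496 genes had an r of at least 0.9. For Fasn the closest were Cenpe (0.990), Myo9a (0.988) and Cpd (0.988), with 31 genes at 0.9 or above. Among the fatty acid genes, Srebf1 passed 0.9 with Acss2 (0.94), Elovl6 (0.94) and Fads2 (0.93). It stood lower with Fads1 (0.86), Scd2 (0.8), Acly (0.7), Scd1 (0.58), Fasn (0.17) and Acaca (0.1). Fasn stood highest with Acaca (0.7) and at 0.35 or below with the rest of them. The 6 points come from 3 lines and are a description only. None of the closest genes named for Srebf1 and for Fasn over all genes compared belongs to the pathways above.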

How the data were processed

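Poly(A) mRNA of CT26 lines was sequenced as paired reads of 150 bases. The authors aligned reads to mm10 with STAR and quantified genes with RSEM, and deposited expected counts (estimated reads per gene, which need not be whole) and TPM for each library, beside FPKM values and gene lengths. The FPKM values deposited by the authors were not used. Of 53801 identifiers, 53620 (99.7%) matched a symbol in GENCODE M21 (GRCm38), which gave the coordinates. The annotation release behind the counts is not given in the sources used here.

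Expected counts were rounded, and the test was that of DESeq2 in version 1.42.0 under R 4.3.3, as in the study's methods. The fit held all 6 libraries and the line as its only term, with a Wald test, independent filtering, no shrinkage and Benjamini-Hochberg adjustment over all genes tested. Genes were called at an adjusted p under 0.05. Folds are from this fit, with standard errors (SE) and 95% intervals, and normalised counts are counts divided by its size factors. The members and lists were chosen with earlier results of these data known. Named are the 10 genes, 8 set genes of SREBP control, up to 3 genes of each other list with the smallest adjusted p in each comparison with the parental line, the 3 genes closest to Srebf1 and to Fasn, and the leading markers. Hsd17b8 matched no symbol, and some genes that the rule or the counts include are not reported here.

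The 18 alternatives covered edgeR (version 4.0.16) and limma (version 3.58.1) tests, scaling, filters, thresholds, blocks and leaving out single libraries. With 1 library left in a line, that library is assumed to vary like the others. A floor of 3 counts covers counting error only.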

Additional observations from a re-analysis of the deposited data

Results flagged for a closer look

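Among the 10 fatty acid genes and the named genes of the listed pathways, 28 differed between B64 and B04. The test was that of DESeq2 at an adjusted p under 0.05, and marker genes were not included. Over all genes, 24.3% of 12855 tested were called in that comparison. Most named pathway genes were picked for a small adjusted p against the parental line in these same libraries. Mlx and Erlin1 were named after their values were seen. The count of 28 therefore gives no share of a pathway. Values are log2 differences, B64 minus B04. For the fatty acid genes they were -0.27 for Srebf1, -0.98 for Acss2, -0.18 for Scd2, -0.27 for Elovl6, -0.17 for Fads1 and -0.69 for Fads2. Of these 6, Acss2 and Fads2 were called in all 18 alternatives and the other 4 were not.

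Among the genes of SREBP control the differences were -0.19 for Srebf2, -0.24 for Scap, -0.49 for Insig1, 0.22 for Mid1ip1, 0.70 for Mlx and 0.19 for Erlin1. Cholesterol synthesis gave -0.53 for Sqle, -0.62 for Acat2 and -0.54 for Stard4. Of the genes that supply carbon and NADPH, Tkt differed by -0.39 and Idh1 by -0.50.

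Elongation genes gave -2.60 for Hacd4 and a fitted -9.35 for Elovl7, which has no reads in B64, so that the fitted size is not a bound. Activation genes gave 0.84 for Slc27a1 and -0.20 for Acsl5. Storage genes moved both ways, with 1.0 for Plin2, 0.46 for Plin3, -0.67 for Agpat2 and -0.59 for Dgat2. Oxidation genes gave -0.61 for Acadm, -0.40 for Cpt1a and 0.51 for Ppard. Scap and Acsl5 lost the call when any 1 of the 4 libraries compared was left out, Srebf2 and Mid1ip1 for 3 of the 4, Dgat2 and Erlin1 for 2 and Cpt1a for 1. Groups of 2 libraries are too small for a test of outlying libraries.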

How the results depend on the processing

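Scd1, Scd2, Acss2, Elovl6 and Fads2 in B04, Scd1 in B64, and Acss2 and Fads2 between the clones were called in all 18 alternatives. In B04 the count of 7 genes called ranged from 6 to 8: edgeR added Acly (0.15, adjusted p = 0.0437), a term for fragment class removed Fads1 (0.21, adjusted p = 0.0566), limma on log2(TPM + 1) or log2(TPM + 0.1) removed it too, and leaving out a library gave 6 to 7. In B64 the count of 2 fell to 1 with the fragment term and with limma on log2(TPM + 1), which lost Scd2. Between the clones the count of 6 fell to 2 with the fragment term, to 2 with limma on log2(TPM + 1) or log2(TPM + 0.1), to 3 with limma on genes of at least 1 TPM, and to between 2 and 6 without single libraries. The number of calls over the listed pathways was 122, against 59 with the fragment term, 54 and 56 with limma at the larger and the smaller pseudocount, and 81 to 95 without single libraries. Over all genes, the fragment term cut 3181, 2157 and 3118 calls (B04 and B64 against the parental line, and B64 against B04) to 1596, 340 and 1625, and limma on log2(TPM + 1) to 1323, 715 and 1382. Of the genes called in B04, 46.4% were higher, and 63.2% with limma on log2(TPM + 1), which moved the median of all genes by 0.06. Leaving out a library gave 1755 to 2577, 988 to 1772 and 1696 to 2758 calls. The causes were not tested.

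Of the 26, 25 and 22 calls of other named genes, in the same order, 12, 1 and 13 held in every alternative and none changed sign; the 1 in B64 was G6pdx. Signs turned only for values of the 10 genes that were not called. Fasn in B64 was 0.07 with the fragment term, 0.08 with effective lengths as an offset and 0.12 in the 3 limma fits, and against B04 it was 0.01, 0.08 and 0.04. Acss2 in B64 was 0.02 with the fragment term, and Acly between the clones 0.02 with the offset. Without single libraries Fasn ranged from -0.04 to 0.06 in B04, from -0.07 to 0.02 in B64 and from -0.08 to 0.02 between the clones. Acaca ranged from -0.05 to 0.15, from -0.04 to 0.16 and from -0.06 to 0.07. In B64 Srebf1 ranged from -0.04 to 0.09 and Acss2 from -0.24 to 0.09. The letters A and B carry no stated reason for pairing, and deviations of same-letter libraries correlated at 0.15, 0.15 and -0.04 between the 3 pairs of lines over 9878 genes. A replicate block for the letter left the counts of fatty acid genes at 7, 2 and 6. Of the other named genes it removed the calls of Elovl7, Acsl1 and Nr1h2 in B04, of Acsl1, Hacd1, Nr1h2 and Srebf2 in B64 and of Elovl7 between the clones. Depth limits Acss2 most, at 119 to 339 counts.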
